A study of Mus musculus with 2 samples.

Results

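The genes described here are 10 components of WNT and R-spondin signalling, taken by name from 55536 annotated genes: the ligands Wnt4, Rspo1 and Rspo3, the receptors Lgr4 and Lgr5, the ligases Znrf3 and Rnf43, and Ctnnb1, Axin2 and Lef1 inside the cell. They were measured by total RNA sequencing of whole adrenal glands from 2 adult female B6CASTF1/J mice, which are F1 hybrids of a C57BL/6J and a CAST/EiJ parent, at 8 to 10 months of age. Both libraries were made from 300 ng of RNA with ERCC spike-in RNA added, and no treatment is named, so the animals form 1 group. Replicate 1 is animal 1 and replicate 2 is animal 3. Both carry the same donor code, and their separation rests on the animal numbers. The spread between them therefore holds both animal and library differences, and no p-value was computed.

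WNT proteins are secreted lipid-modified ligands that bind Frizzled receptors and the co-receptors Lrp5 and Lrp6, which stops the destruction complex from degrading beta-catenin. Beta-catenin then enters the nucleus and acts with TCF and LEF proteins on target genes. The ligases Znrf3 and Rnf43 remove Frizzled receptors from the cell surface, and R-spondins, held by Lgr receptors, remove the ligases. In the adrenal cortex, R-spondin from the capsule and Wnt4 from the zona glomerulosa are known to maintain the outer, aldosterone-producing zone, and the signal falls towards the zona fasciculata. Whole glands were sequenced, so these data carry no information on position within the gland.

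Total expected counts, which are estimated reads per gene, were 40453707 in replicate 1 and 34319787 in replicate 2. A count of 3, taken as the floor of detection, equals 0.0742 and 0.0874 CPM, which are counts scaled to the total of the library. Levels are given as TPM, reads per transcript length scaled to the sum over all transcripts. Adrenal cortex markers summed to 15316 and 15024 TPM, zona glomerulosa markers to 1003 and 1076 TPM and medulla markers to 1519 and 1424 TPM. Of the zona glomerulosa sum, Kcnk3 alone held 549 and 593 TPM. Cyp11b2 held 164 and 174 TPM of it, but stood at 341 and 392 TPM in the index-based transcript table. All 4 kidney markers were at 0 counts in both animals in the gene table, while the index-based transcript table gave Nphs1 3.06 and 7.24 counts and Slc34a1 2 counts in replicate 1, and the lymphocyte list summed to 1.17 and 0.93 TPM. Adipocyte markers summed to 850 TPM in replicate 1 and 445 TPM in replicate 2, capsule and stroma markers to 172 and 126 TPM, and the liver list to 6.63 and 21.7 TPM. Fewer cells of a type and less RNA per cell cannot be told apart in these bulk samples.

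The sequences on which transcript results turn are shown first. For Lef1 and the receptors Lgr4 and Lgr5, each is a wholly coding exon that some annotated coding transcript of the gene leaves out, with the exon in capitals and 20 bases of the exon on either side in lower case. They were read 5′ to 3′ from the GENCODE M21 transcripts on mm10. Exon 6 of 12 of Lef1 (84 bases, chr3:131191023-131191106, plus strand) is missing from Lef1-202 and Lef1-204. Exon 2 of 18 of Lgr4 (72 bases, chr2:109970692-109970763, plus strand) is missing from Lgr4-202. Exon 8 of 18 of Lgr5 (72 bases, chr10:115470564-115470635, minus strand) is missing from Lgr5-206. All 3 exon lengths are multiples of 3, so leaving out any 1 of these exons alone keeps the reading frame. Lef1-204 also lacks exon 11, whose 41 bases are not wholly coding, so its length alone does not decide the reading frame. The Lgr exons encode stretches of the leucine-rich repeat ectodomain that holds R-spondin.
Lef1 exon 6: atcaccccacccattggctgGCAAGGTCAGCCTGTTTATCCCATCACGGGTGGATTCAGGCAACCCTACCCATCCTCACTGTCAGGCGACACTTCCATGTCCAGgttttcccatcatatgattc
Lgr4 exon 2: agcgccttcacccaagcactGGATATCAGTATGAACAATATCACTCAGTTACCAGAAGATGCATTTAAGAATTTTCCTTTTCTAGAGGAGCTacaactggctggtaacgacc
Lgr5 exon 8: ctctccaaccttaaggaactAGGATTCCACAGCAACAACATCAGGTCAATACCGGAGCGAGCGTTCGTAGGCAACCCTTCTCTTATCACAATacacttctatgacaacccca

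For Rnf43, the 250 bases before each of its annotated starts of coding transcripts with a RefSeq window are shown (RefSeq, GRCm38.p6, plus strand), because the tables divided its reads between these starts. Capitals mark CG pairs. The upstream window (chr11:87662837-87663086) holds 8 CG pairs and the internal one (chr11:87699647-87699896) holds 2, against a median of 6 over the windows of all genes. The starts lie 36810 bases apart.
Rnf43 upstream start: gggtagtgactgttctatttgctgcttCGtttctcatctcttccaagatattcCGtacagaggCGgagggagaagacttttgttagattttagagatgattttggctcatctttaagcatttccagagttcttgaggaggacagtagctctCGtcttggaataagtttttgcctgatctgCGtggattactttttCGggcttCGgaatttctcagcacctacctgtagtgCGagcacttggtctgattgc
Rnf43 internal start: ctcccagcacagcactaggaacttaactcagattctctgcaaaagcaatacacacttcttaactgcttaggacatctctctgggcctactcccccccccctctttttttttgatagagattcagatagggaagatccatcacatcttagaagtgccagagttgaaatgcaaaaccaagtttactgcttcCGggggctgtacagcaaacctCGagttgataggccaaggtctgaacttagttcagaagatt

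All 10 genes reached 1 TPM in both animals, and their levels ranged from 1.61 TPM for Rspo1 to 324 TPM for Ctnnb1. In order of mean TPM they were Ctnnb1, Lgr4, Wnt4, Axin2, Lgr5, Znrf3, Rspo3, Lef1, Rnf43 and Rspo1. The level of Rspo1 exceeded that of only 47.7% and 48.0% of protein-coding genes, so a level above 1 TPM is common among them. The authors deposited lower and upper bounds for each TPM value, which describe the error of estimation within a library and whose level is not given. The bounds do not always hold the TPM value itself. Kcnk3, at 549 and 593 TPM, had bounds of 534 to 546 and 574 to 588 TPM. Of the 9 neighbouring pairs in that order, 5 were apart in both animals when these bounds were taken into account. The pairs that were not apart were Axin2 and Lgr5, Lgr5 and Znrf3, Znrf3 and Rspo3, and Lef1 and Rnf43.

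**Figure D1:**
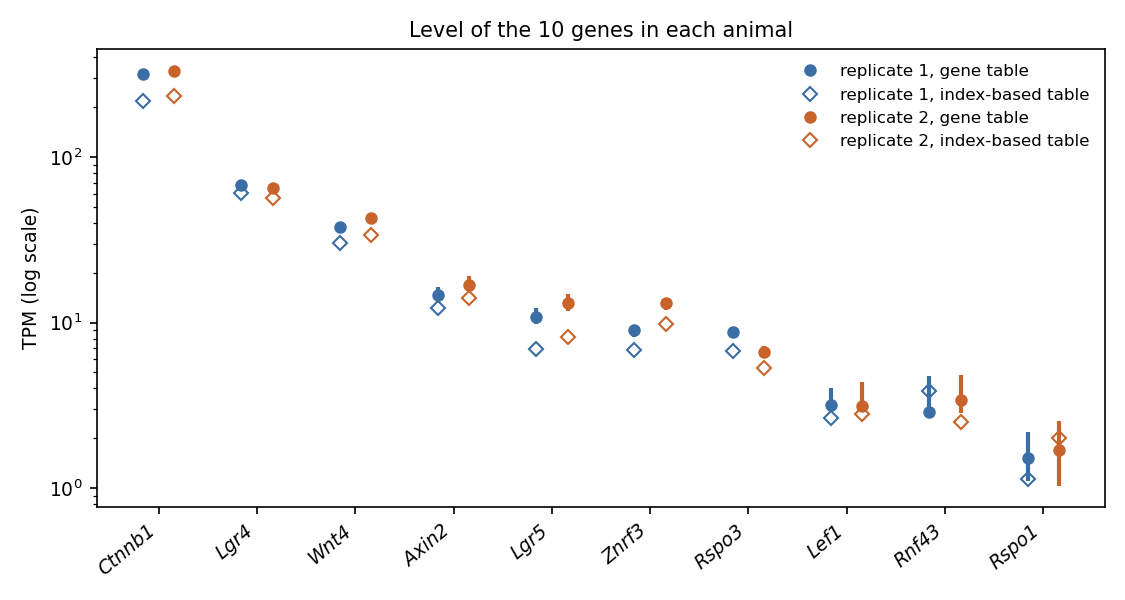
Level of the 10 genes in TPM (log scale) in each animal: filled points are the gene table, bars its deposited bounds, and open diamonds the index-based transcript table summed over each gene. Ctnnb1 stands highest at 318 and 329 TPM and Rspo1 lowest at 1.52 and 1.69 TPM, and most diamonds lie below the filled points of the same animal.

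Among the ligands, Wnt4 (ENSMUSG00000036856.4, chr4:137277489-137299726, plus strand) was the highest, at 37.8 and 42.6 TPM in replicates 1 and 2, or 40.2 ± 3.34 TPM (SD, n = 2). Its level exceeded that of 91.6% and 92.4% of protein-coding genes. It rested on 6024 and 5758 expected counts, and its only annotated transcript, Wnt4-201, held all of them. Replicate 2 was the higher animal by TPM, with bounds of 36.2 to 38.1 against 40.6 to 42.7 TPM. On counts scaled by TMM, the log2 ratio of replicate 2 over replicate 1 was 0.08, a difference of 1.06-fold.

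Rspo3 (ENSMUSG00000019880.10, chr10:29452416-29535867, minus strand), the R-spondin of the adrenal capsule, stood at 8.72 and 6.64 TPM, or 7.68 ± 1.47 TPM (SD, n = 2). Here replicate 1 was higher, and the bounds of 8.03 to 9.27 and 6.10 to 7.21 TPM did not overlap. The log2 ratio of -0.45, from 988 and 655 counts, was the furthest from 0 among the 10 genes on scaled counts. Of the capsule and stroma markers, taken as 1 list, 6 of 7 had ratios below 0 as well, with a median of -0.52. The exception was Gli1, at 0.01 on 182 and 166 counts. Adipocyte markers had a median of -1.06, with 4 of 4 below 0. The part of these cell types in the Rspo3 ratio was not tested.

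Rspo1 (ENSMUSG00000028871.7, chr4:124986430-125009099, plus strand), the other capsular R-spondin, was the least abundant of the 10 at 1.52 and 1.69 TPM, or 1.61 ± 0.12 TPM (SD, n = 2). Its bounds overlapped widely, at 1.10 to 2.17 and 1.03 to 2.55 TPM. Its 75 and 60 counts fell under the mean of 100 set for comparing the animals. Part of its TPM came from the 446-base noncoding Rspo1-202, which took 33.6% and 47.3% of the gene's TPM on 6.88 and 9.16 counts. The coding Rspo1-201 alone stood at 1.01 and 0.89 TPM.

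Rspo3 exceeded Rspo1 in both animals. The ratio of their TPM values was 5.74 in replicate 1 and 3.93 in replicate 2, or 4.83 ± 1.28 (SD, n = 2). The index-based transcript table, which the authors made from the reads and a transcript index, gave 5.89 and 2.63. Over protein-coding transcripts only, a setting chosen after the data were seen, the mean ratio was 8.04. The order of both genes thus held in each table, whereas the size of the difference did not.

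The receptor Lgr4 (ENSMUSG00000050199.13, chr2:109917647-110014257, plus strand) stood at 68.2 and 64.8 TPM, or 66.5 ± 2.40 TPM (SD, n = 2), on 12442 and 10160 counts. Replicate 1 was slightly higher, with bounds of 65.6 to 68.8 and 62.1 to 65.3 TPM and a log2 ratio of -0.15. Lgr5 (ENSMUSG00000020140.15, chr10:115450311-115587780, minus strand), a related receptor and also a WNT target gene, stood at 10.9 and 13.1 TPM, or 11.99 ± 1.61 TPM (SD, n = 2), on 1392 and 1359 counts. Its bounds of 9.77 to 12.3 and 11.8 to 14.8 TPM overlapped, and its log2 ratio was 0.11.

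Lgr4 was above Lgr5 in both animals, by 6.29 and 4.94 times in TPM, or 5.61 ± 0.954 (SD, n = 2). In the index-based table the ratios were 8.75 and 6.88. Lgr4-201 held 93.8% and 95.05% of the TPM of Lgr4. For Lgr5 the coding Lgr5-201 held 65.0% and 60.2%, and the 607-base noncoding Lgr5-203 held 29.4% and 34.4% on only 62.9 and 75.6 counts. In the index-based table Lgr5-203 held 9.26% and 9.71%, and the level of Lgr5 was 6.91 and 8.21 TPM.

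The receptor exons printed above were nearly always present among the estimated coding reads. Lgr4-202, without exon 2, was under 0.01 counts in both animals and both tables, beside 12344 and 10100 counts of Lgr4-201 in the alignment-based table. Lgr5-206, without exon 8, was at 0 apart from 12.4 estimated counts in replicate 1 of the index-based table. These are estimates divided among overlapping transcripts, not counts of reads across the junctions.

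The ligase Znrf3 (ENSMUSG00000041961.14, chr11:5276324-5444847, minus strand) stood at 8.98 and 13.1 TPM in replicates 1 and 2, or 11.1 ± 2.93 TPM (SD, n = 2). Replicate 2 was higher, and the bounds of 8.16 to 9.62 and 11.95 to 13.8 TPM were apart. From 1826 and 2061 counts its log2 ratio was 0.32, the highest of the 10 genes. TPM as deposited gave 0.54, and the effective length by which the authors divided was 5225 bases in replicate 1 and 4750 bases in replicate 2.

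All 3 annotated transcripts of Znrf3 code for protein. Znrf3-201 held 57.8% and 50.1% of the TPM, Znrf3-203 held 32.0% and 30.2%, and the 1022-base Znrf3-202 held 10.2% and 19.7%. Znrf3-203 begins 63107 bases inside the gene. The index-based table gave this internal start 41.0% and 38.9%, and Znrf3-202 0% and 7.55%. The share of the internal start was therefore close between the animals in each table, while that of Znrf3-202 was not.

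Rnf43 (ENSMUSG00000034177.15, chr11:87662722-87735539, plus strand), the paralog of Znrf3, was lower, at 2.89 and 3.38 TPM, or 3.14 ± 0.346 TPM (SD, n = 2), on 370 and 307 counts. Its bounds were 2.94 to 4.76 and 2.85 to 4.80 TPM, so the value of replicate 1 lies just outside its own bounds. The log2 ratio was -0.12 on scaled counts and 0.22 on TPM as deposited, so no direction can be given. Znrf3 exceeded Rnf43 by 3.11 and 3.88 times in TPM, or 3.50 ± 0.55 (SD, n = 2), and by 1.77 and 3.86 times in the index-based table.

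The transcripts of Rnf43 were the least settled among the 10 genes. Rnf43-209, which begins at the upstream start shown above, held 41.0% of the TPM in replicate 1 and 0% in replicate 2, where Rnf43-201, from the internal start, held 46.4%. Of the coding TPM, Rnf43-201 took 20.1% and 91.8%. The other coding transcripts, Rnf43-209, Rnf43-202 and Rnf43-203, took 79.9% and 8.19%. Rnf43-202 and Rnf43-203 begin 1187 and 1462 bases past the start of Rnf43-209, and all of the 8.19% belonged to Rnf43-202. The index-based table gave these 3 together 86.0% and 66.4%. Both tables thus put more of the coding TPM on the internal start in replicate 2. Only the alignment-based table made it the larger coding share there. The values rest on 195 and 0 counts for Rnf43-209, 0 and 18.1 counts for Rnf43-202 and 41.8 and 185 counts for Rnf43-201. The 378-base Rnf43-205, annotated as a retained intron, held 7.59% and 15.4% of the gene's TPM on 2.33 and 4.74 counts. In the index-based table it held 34.0% and 19.4% and was the highest transcript of replicate 1. Transcripts annotated as retained introns, chiefly Rnf43-206, held 48.6% and 42.9% of the gene's TPM. Rnf43-206 alone held 37.9% and 27.5%, on 128 and 92.9 counts. It begins upstream of Rnf43-209, and the coding shares above leave it out. They therefore do not give the share of all reads from upstream starts. The span of Rnf43-206, chr11:87662722-87729934, includes the upstream window printed above. Whether that window lies in an exon of Rnf43-206 was not examined.

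Ctnnb1 (ENSMUSG00000006932.17, chr9:120929216-120960507, plus strand), which encodes beta-catenin, a component of cell junctions as well as of this pathway, stood at 318 and 329 TPM, or 324 ± 7.98 TPM (SD, n = 2). It exceeded 99.5% of protein-coding genes in both animals. Its bounds of 305 to 325 and 317 to 336 TPM overlapped. The log2 ratio was -0.06 from 28315 and 24628 counts, and 0.05 on TPM as deposited. Of the genes that overlap it, Ulk4 on the other strand had the most counts, at 76 and 68, and no gene overlapping another of the 10 had more than 13.

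Only a part of the Ctnnb1 level in TPM was assigned to coding transcripts. The full-length Ctnnb1-201 held 36.8% and 35.7% of the TPM, and Ctnnb1-215, a single-exon transcript annotated as a retained intron, held 34.6% and 36.3%. Ctnnb1-215 is 1292 bases long, and 1199 of these are shared with the last exon of Ctnnb1-201. Reads there can be assigned to either transcript. A further 17.2% and 18.8% belonged to Ctnnb1-214, which has the same 2343-base coding sequence as Ctnnb1-201 but a last exon that ends 727 bases earlier. Coding transcripts together held 56.6% and 56.5% of the TPM, and 78.0% and 74.5% in the index-based table, where the level of the gene was 219 and 234 TPM. By estimated counts Ctnnb1-201 was the highest transcript in both animals and both tables. In the alignment-based table Ctnnb1-201 held 56.6% and 55.5% of the counts and Ctnnb1-215 held 18.0% and 19.1%.

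Axin2 (ENSMUSG00000000142.15, chr11:108920349-108950783, plus strand), a scaffold of the destruction complex that is itself a target of the pathway, stood at 14.6 and 16.9 TPM, or 15.7 ± 1.66 TPM (SD, n = 2). The bounds of 13.1 to 16.4 and 15.6 to 19.2 TPM overlapped, and the log2 ratio was 0.18 on 1656 and 1697 counts. Axin2-201 held 65.6% and 66.6% of the TPM, close to 64.4% and 64.8% in the index-based table. The short coding Axin2-207 held 15.9% and 3.78% on 33.8 and 7.95 counts, and 0% in the index-based table. Axin2-204, 826 bases long, held 12.7% and 17.1%.

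Lef1 (ENSMUSG00000027985.14, chr3:131110471-131224356, plus strand), a DNA-binding partner of beta-catenin, was nearly equal in the animals, at 3.19 and 3.15 TPM, or 3.17 ± 0.0283 TPM (SD, n = 2). Its bounds of 2.88 to 4.04 and 2.97 to 4.37 TPM overlapped, and its log2 ratio was 0.04 on scaled counts and -0.02 on TPM. Lef1-201 held 79.6% and 86.3% of its TPM. Lef1-208, a 345-base retained intron, held 10.4% on 3.16 counts in replicate 1 and was at 0 in replicate 2.

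Most coding Lef1 counts belonged to transcripts with exon 6, the exon printed above. Coding transcripts without it held 4.14% of the counts of all coding transcripts spanning its position in replicate 1 (Wilson 95% interval 2.41 to 6.64) and 4.93% in replicate 2 (3.10 to 7.97). The index-based table gave 7.02% (4.84 to 9.83) and 13.9% (10.8 to 18.0). Transcripts without exon 6 were thus the minor form in each. Their counts all belonged to Lef1-204, which also lacks exon 11, so they cannot be given to exon 6 alone. Their share was higher in the index-based table in both animals. Both tables were made from the same libraries, so these intervals cannot be used to compare the tables. The intervals cover counting error only and leave out the error of dividing reads among overlapping transcripts.

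**Figure D2:**
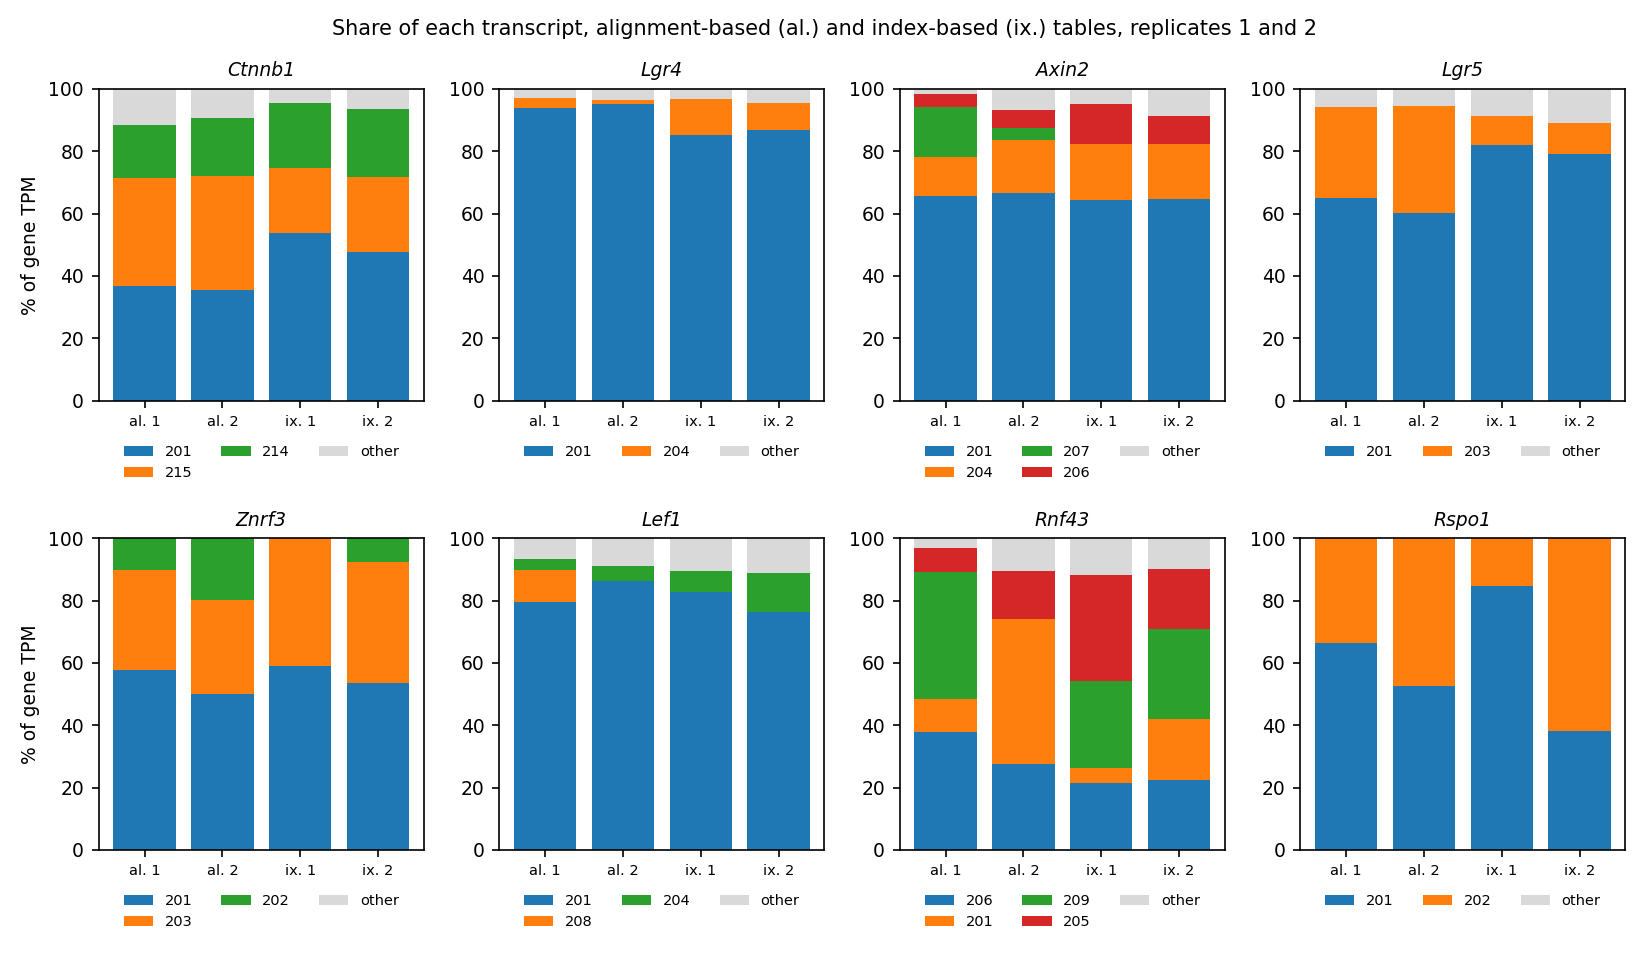
Percent of each gene's TPM held by its transcripts, as stacked bars, in the alignment-based (al.) and index-based (ix.) tables for replicates 1 and 2, with transcripts at 10% or more in any bar coloured by number and the rest in grey. Lgr4-201 takes most of Lgr4 in all 4 columns, the share of Ctnnb1-215 falls from about the size of Ctnnb1-201 in the alignment-based table to well under it in the other, and the bars of Rnf43 and Rspo1 differ between animals.

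Across the 9 genes with several annotated transcripts, the transcript highest by TPM was the same in both animals for 7 in the alignment-based table. The exceptions were Rnf43 and Ctnnb1. In the index-based table the number was also 7, with Rspo1 and Rnf43 as the exceptions. By estimated counts 8 of the 9 had 1 highest transcript throughout, in both animals and both tables, Rnf43 being the exception. The 10 genes have 59 annotated transcripts, of which 31 are coding and 9 stayed under 0.01 counts in both tables and both animals.

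The animals were compared under a rule of at least 2-fold on TMM-scaled counts, a mean of 100 or more expected counts, and TPM bounds that did not overlap. None of the 9 genes with enough counts passed it, in either direction. Over all 12645 genes with enough counts, 152 passed, or 1.20%, with 0.506% higher and 0.696% lower in replicate 2. Scaled counts put 64 genes higher and 88 lower, whereas deposited TPM put 96 higher and 59 lower. At any size of difference, the bounds were apart for 4 of the 9 genes, Wnt4, Rspo3, Znrf3 and Lgr4, against 27.4% of all genes tested. These bounds hold only the error within a library, and the 9 genes were not matched in count to all genes. The difference in share was not tested.

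The median log2 ratio of the 9 genes was 0.04, beside -0.03 over all genes tested. Their median absolute log2 ratio was 0.12, beside 0.15 over all genes tested, of which 95% lay under 0.64. Using TPM as deposited moved the median of all genes to 0.07 and that of the 9 genes to 0.17, and it changed the sign for Rspo1, Rnf43, Ctnnb1 and Lef1. Wnt4, Lgr5, Znrf3 and Axin2 kept ratios above 0 and Rspo3 and Lgr4 ratios below 0 under all 6 other ways of computing them. No replicate check of these differences is possible with 1 library per animal.

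**Figure D3:**
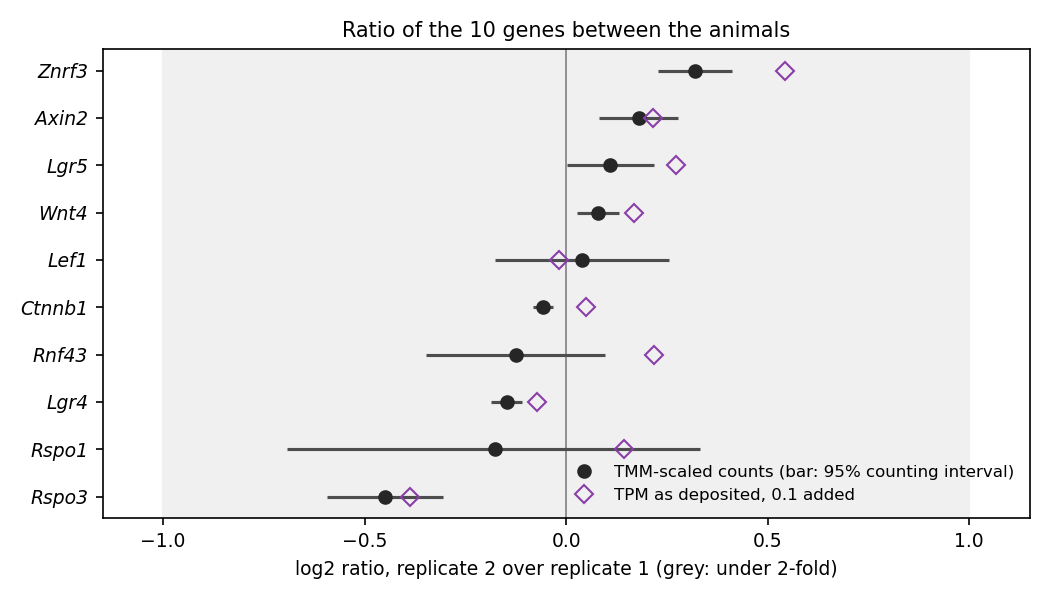
Log2 ratio of replicate 2 over replicate 1 for the 10 genes: filled points are TMM-scaled counts with 95% counting intervals as bars, open diamonds TPM as deposited, and the grey band marks differences under 2-fold. All 10 filled points lie inside the band, from -0.45 for Rspo3 to 0.32 for Znrf3. The diamonds of Rnf43, Rspo1, Ctnnb1 and Lef1 lie on the other side of 0 from their points, at 0.05 for Ctnnb1 and -0.02 for Lef1.

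The rest of the pathway was described with 10 lists holding 97 genes, the 10 genes above included. Of the 97, 68 reached 1 TPM in both animals. Among the 67 with enough counts, 0 were higher and 1 was lower under the 2-fold rule, and the median log2 ratio was -0.04. Over all genes tested the share past this rule was 1.20%. The bounds were apart for 31 of the 67, against 27.4% of all genes tested. The 67 genes were likewise not matched in count to all genes, and this difference in share was not tested.

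**Figure D4:**
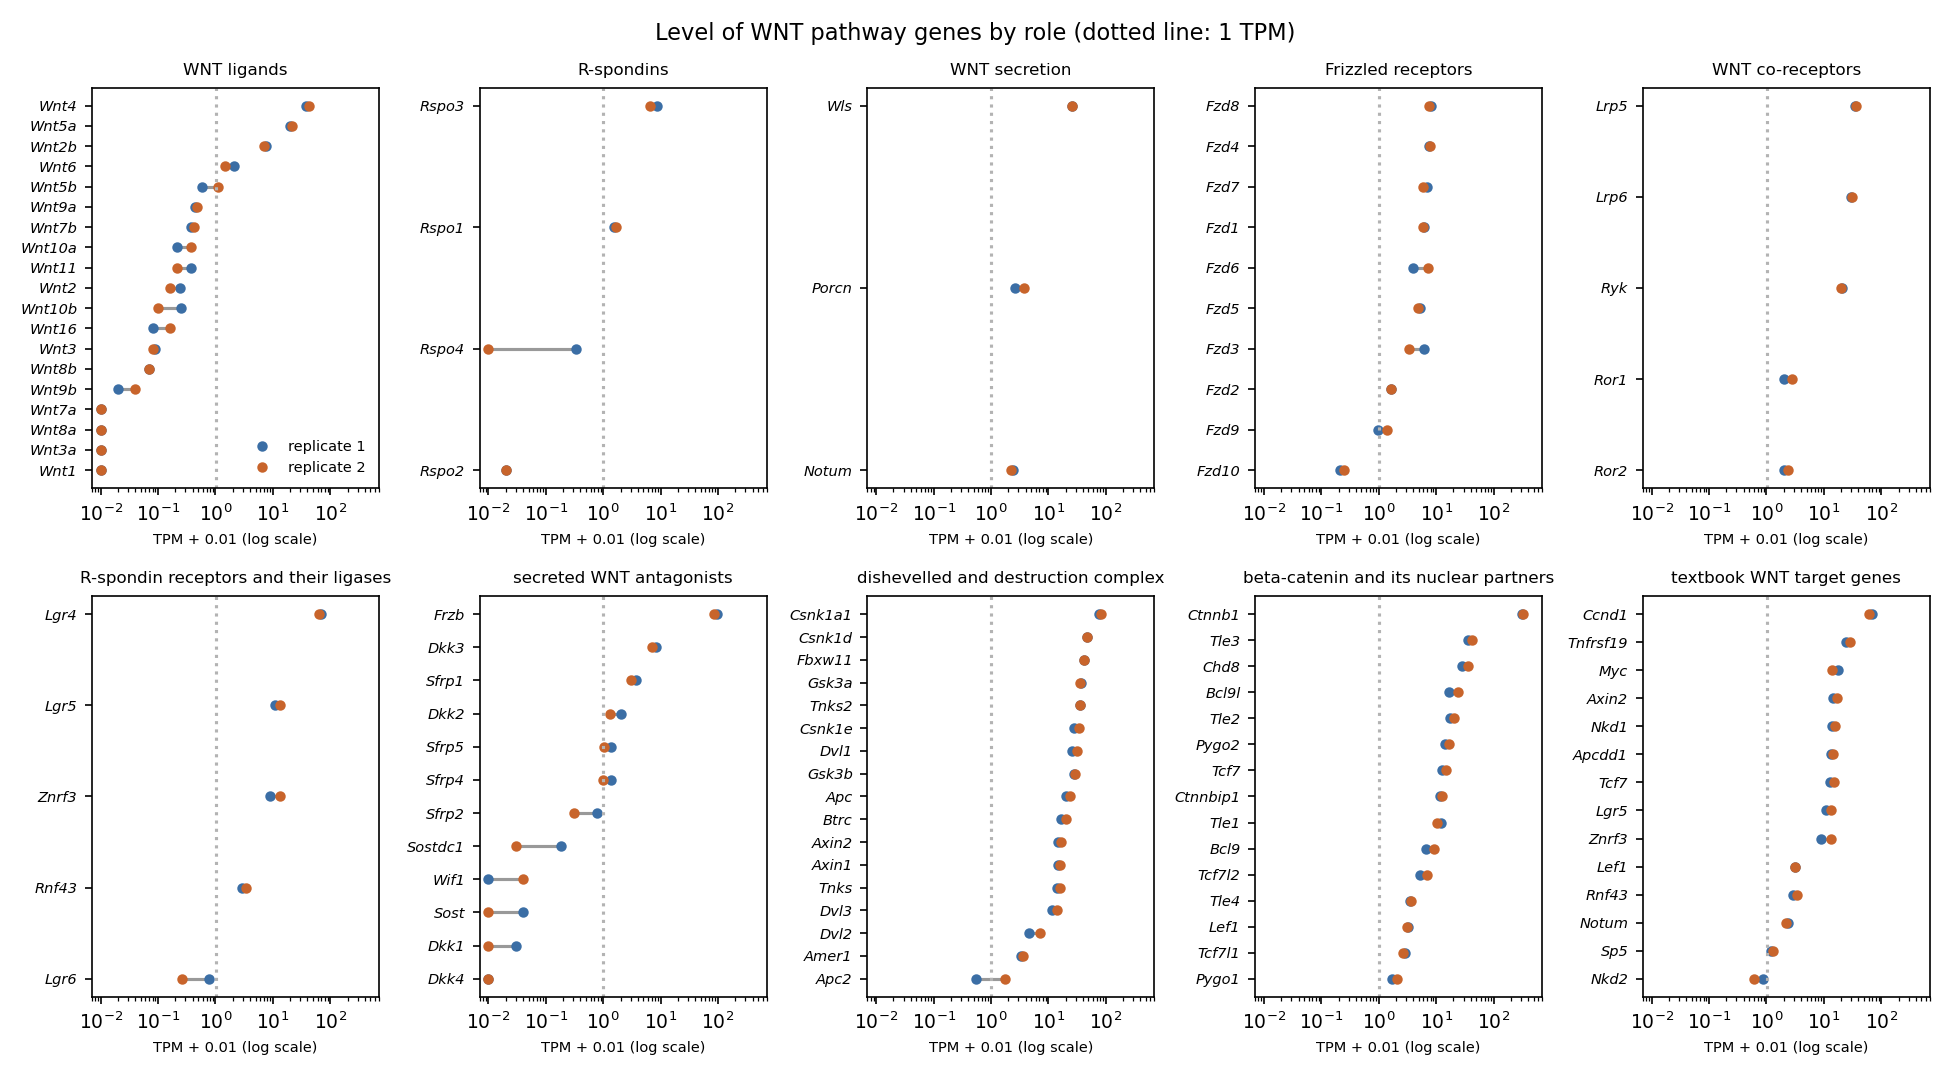
TPM plus 0.01 (log scale) of the 97 pathway genes in replicates 1 and 2, by role, with a dotted line at 1 TPM. In both animals Wnt4 leads the WNT ligands, Lgr4 the R-spondin receptors and ligases, Frzb the secreted antagonists and Ctnnb1 the nuclear partners, and Lgr6 stands lower in replicate 2.

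Of 19 WNT ligand genes, 4 reached 1 TPM in both animals. After Wnt4 came Wnt5a, a ligand of mostly beta-catenin-independent signalling, at 19.9 and 21.9 TPM, and Wnt2b at 7.71 and 6.92 TPM. Wnt6 stood at 2.08 and 1.46 TPM. Wnt1, Wnt3a, Wnt7a and Wnt8a had 0 counts in either animal, so levels under the floors of 0.0742 and 0.0874 CPM cannot be seen. In the R-spondin family, Rspo4 had 29 counts in replicate 1 and 0 in replicate 2, and Rspo2 had 1 count in each. All 3 genes of the WNT secretion list reached 1 TPM in both animals. The WNT carrier Wls stood at 25.7 and 25.5 TPM and the acyltransferase Porcn at 2.56 and 3.81 TPM. The deacylase Notum, at 2.38 and 2.21 TPM, was placed in this list although it does not serve secretion. It is not counted among the antagonists below.

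Frizzled receptors were spread over several members: 8 of 10 reached 1 TPM in both animals and none reached 10 TPM. Fzd8 stood at 8.21 and 7.43 TPM, Fzd4 at 7.56 and 7.79 TPM and Fzd7 at 6.82 and 5.84 TPM. The co-receptors Lrp5 (34.2 and 35.9 TPM) and Lrp6 (30.0 and 30.3 TPM) were higher than any Frizzled receptor in both animals. The WNT-binding receptor Ryk stood at 20.9 and 19.97 TPM.

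Lgr6, the third receptor of the R-spondin family, was the pathway gene past the 2-fold rule. Its level was 0.76 TPM in the first animal and 0.25 TPM in the second, on 195 and 54 counts, with a log2 ratio of -1.70, while Lgr4 and Lgr5 had -0.15 and 0.11. Its counting interval ran from -2.17 to -1.27.

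Of 12 secreted antagonists, 5 reached 1 TPM in both animals, and Dkk4 was at 0 counts in both in the gene table but at 7 and 5 counts in the index-based table. Frzb, which binds WNT ligands, stood at 94.5 and 86.6 TPM, above every WNT ligand in both animals. Dkk3 stood at 8.37 and 6.99 TPM and Sfrp1, another WNT-binding protein, at 3.71 and 3.04 TPM. All 4 antagonists with enough counts had ratios below 0, with a median of -0.36, and none passed the 2-fold rule. The capsule and stroma markers had a median of -0.52, and their part in these ratios was not tested.

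Inside the cell, 16 of 17 dishevelled and destruction complex genes reached 1 TPM in both animals, with a median log2 ratio of 0.04. The kinases Csnk1a1 (77.0 and 83.5 TPM) and Csnk1d (47.1 and 47.0 TPM) and the ubiquitin ligase subunit Fbxw11 (41.7 and 42.1 TPM) led this list. Apc2 stood at 0.53 and 1.73 TPM, with a log2 ratio of 0.80 on scaled counts and 1.54 on TPM as deposited. Its effective length was 8307 bases in replicate 1 and 4763 bases in replicate 2. All 15 genes of beta-catenin and its nuclear partners reached 1 TPM in both animals, with a median log2 ratio of 0.09. After Ctnnb1 the co-repressor Tle3 (36.3 and 41.4 TPM) and the chromatin remodeller Chd8 (28.3 and 36.3 TPM) were highest. Among the DNA-binding partners, Tcf7 stood at 12.7 and 14.8 TPM, above Lef1.

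Of 14 textbook target genes, 13 reached 1 TPM in both animals, the exception being Nkd2 at 0.85 and 0.59 TPM. Ccnd1, a cell cycle gene with many inputs, stood at 68.3 and 62.3 TPM, the receptor gene Tnfrsf19 at 24.7 and 28.7 TPM and Myc at 18.0 and 13.8 TPM. The list holds 5 of the 10 genes described first, and its median log2 ratio was 0.02.

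RefSeq start windows of 300 bases, from 250 before to 50 after a start, were found for 7 of the 10 genes, 12 windows in all. They were searched on both strands for CTTTGAT and CTTTGAA, which are forms of the letters bound by TCF and LEF proteins. No window of these genes held either, and 8.65% of the 32851 windows of all genes did. The 12 windows are few at that share, and some of them overlap. Their lack of a match is therefore no result about these genes. Rspo3, Znrf3 and Lgr5 have no window in the table used.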

How the data were processed

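Total RNA libraries of 2 adrenal glands were analysed as 1 group. The authors deposited, per library, a gene table and a transcript table from a transcriptome alignment, and a second transcript table from the reads and a transcript index, on mm10 with GENCODE M21, per the notes deposited with the files. Program names and versions: not given in the sources used here. Deposited expected counts (estimated counts) are without normalization, per the file headers. TPM was scaled by the authors over all rows, tRNA and spike-in rows included, which makes a gene's TPM lower than on a scale of genes alone. The lower and upper bounds of TPM were deposited as a signal column per library, with no stated level. FPKM and the percent of a gene's TPM held by each transcript were deposited as well, per the file headers. A directional kit is linked per the labels, but no source used here says whether counting used strand, which leaves genes overlapping on the other strand uncertain, or how reads with CAST alleles were treated.

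Counts were rounded and scaled by TMM (edgeR 4.0.16, R 4.3.3), and log2 ratios have 0.5 added to each count. DESeq2 1.42.0 gave alternative size factors. Depth was 40453707 and 34319787 expected counts, with a floor of 3 counts, and intervals cover counting error only. The scaling and ratio step was tested on simulated data. Python 3.11.15 (numpy 2.4.6, pandas 2.3.3, scipy 1.17.1, matplotlib 3.10.9) was used for the rest. The text names all 10 genes and, from each of 10 pathway lists, the 3 with the highest mean TPM, every gene past the 2-fold rule, and those at 0 counts in both animals where they are 5 or fewer. Wnt6, Rspo2, Apc2, Tcf7 and Nkd2 were named after their values were seen. Transcripts are named where they were highest for their gene in either table or held 10% or more of its TPM in a library of the alignment-based table; Rnf43-202, Rnf43-203 and those without a printed exon were added after their values were seen. Genes of like pattern were not sought, since 2 libraries give no measure of likeness. The 10 genes and all lists were chosen with earlier results of these data known. Of the 11 cell marker lists, those for zona fasciculata, endothelium and ovary summed to 3630, 141 and 9.13 TPM in replicate 1 and 4597, 138 and 11.8 TPM in replicate 2. Alternatives were other scalings, pseudocounts, count and TPM limits, FPKM, the index-based table, TPM rescaled over protein-coding genes or over coding transcripts, and each library left out.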

Additional observations from a re-analysis of the deposited data

How the results depend on the processing

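All 10 genes passed a limit of 0.5 TPM in both animals and also passed 1 TPM with either library left out, in the index-based table, and with TPM rescaled over protein-coding genes, which multiplied levels by 2.83 and 2.79 in replicates 1 and 2. At a limit of 5 TPM 7 of the 10 passed, and over coding transcripts, an alternative chosen after seeing the data, 9 reached 1 TPM. With TPM rescaled over protein-coding genes 7 WNT ligands reached 1 TPM in both animals against 4. A limit of 5 TPM left 1 R-spondin, 1 secretion gene, 4 Frizzled receptors, 3 co-receptors and 2 antagonists, and coding transcripts alone left 1 R-spondin. Pathway genes past the 2-fold rule were 1, and 2 with a mean count of 10 or on TPM, 3 with no count limit and 3 at 1.5-fold, alternatives also added after seeing the data. All genes past it were 152 of 12645 (1.20%), 532 of 17751 (3.00%) with a mean count of 10, 663 of 55536 (1.19%) with no count limit, 634 of 12645 (5.01%) at 1.5-fold and 155 (1.23%) on TPM. The number of the 10 genes past the 2-fold rule stayed at 0 under all 8 alternatives. Of 60 alternative log2 ratios of the 10 genes, 54 kept their sign; the others were those of Rspo1 (0.14), Rnf43 (0.22), Ctnnb1 (0.05) and Lef1 (-0.02) on TPM, Ctnnb1 on CPM (0.04) and Lef1 in the index-based table (-0.02). The median ratio of the members was 0.17 on TPM against 0.04. The Rspo3 to Rspo1 ratio was 12.05 on expected counts and 8.04 over coding transcripts; Znrf3 to Rnf43 was 2.82 in the index-based table, 5.82 on counts and 6.85 over coding transcripts; Lgr4 to Lgr5 was 7.82, 8.21 and 8.44.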
